A study of Mus musculus with 24 samples.

Results

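The 150 genes described here flank Thbs2 on mouse chromosome 17. Thbs2 encodes thrombospondin 2, a secreted matrix glycoprotein that astrocytes use to promote synapse formation. In the deposited expression table, which lists genes in genomic order, the 50 rows before and the 150 rows after Thbs2 were taken. From these 200 genes, 4 with symbols starting Nduf, Atp5, Rpl or Rps were left out (Rps6ka2, which encodes a kinase, Rps2, Ndufb10 and Rpl3l). A further 46 had a mean below 1 FPKM over the 24 libraries. FPKM counts fragments per kilobase of a gene, with library size scaled out. The 150 left, 34 before and 116 after Thbs2, are among 15232 genes in the table and 12572 with a mean of at least 1 FPKM. Cahm (row -26) lay just above that minimum and 1700110C19Rik (row -25, mean 0.970 FPKM) just below it. A gene can pass this minimum through 1 or 2 arms alone, or through 1 library, as Baiap3 did. Of the 150, 8 had a mean under 1 FPKM in at least 1 arm (Cahm, Tcte2, 9030025P20Rik, Dll1, Gm16386, Pkmyt1, D330041H03Rik and Baiap3).

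RefSeq places 149 of the 150 genes, all but LOC106740, on chromosome 17 of GRCm38.p6 between 6306344 and 25985874. Thbs2 itself lies at chr17:14665500-14694262, so the described genes reach 8.37 Mb before its start and 11.3 Mb after it. Distances are given in rows of the table, negative before Thbs2.

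Each library is bulk poly(A) RNA of the whole anterior cingulate cortex of 1 mouse, a frontal midline region studied for effort and action selection. By label there are 3 arms of 8 mice, split evenly into 4 females and 4 males. They are wild type mice without training (WT), untrained mice with a double knockout of Thbs1 and Thbs2 (Thbs1/2 KO), and such KO mice trained in an operant (Skinner) box. Both KO arms are labelled as carrying both knockouts. Mice had free food until training and were then food deprived, so training and food deprivation cannot be told apart. Strain, age, the deleted parts of the genes and littermate status are not given in the sources used here, and no trained WT mice are analysed here.

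The proximal part of mouse chromosome 17 is the classical home of the t complex, whose genes often keep symbols such as Tcp1 and Tcte2. It also holds a large cluster of KRAB zinc finger genes, which encode DNA-binding repressors and have multiplied by local duplication. Further from the centromere lies a dense stretch of housekeeping and neuronal genes that includes Tsc2, Pkd1 and Rnps1. As general background, neighbouring genes on a chromosome are inherited together more often than distant ones, and DNA around a targeted gene can pass with it through breeding. DNA sequence variants in these mice were not analysed here.

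Thbs2 ranged over 1.52 to 2.31 FPKM (median 2.10) in libraries labelled WT, 2.82 to 3.95 FPKM (median 3.60) in untrained libraries labelled KO and 2.95 to 3.63 FPKM (median 3.33) in trained ones. Every library labelled KO lay above every library labelled WT. The difference between untrained libraries, KO label minus WT label in log2(FPKM + 1), was 0.58 ± 0.064 (adjusted p = 3.80e-05) by limma. Here and below ± is the standard error (SE), n is 8 per arm and adjusted p is by Benjamini-Hochberg over all tested genes. For Thbs2 an exact 2-sided permutation test gave p = 0.0001554, the smallest that 8 against 8 can give. The targeted gene thus went against its label, and gene-level values cannot show which exons were read. All directions below therefore refer to libraries by label.

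Depth, as whole reads recovered from the FPKM values, ran from 12898226 to 19991770 reads per library labelled WT, 12343773 to 27233267 in untrained and 16796512 to 20414047 in trained libraries labelled KO. Markers of the sampled tissue were present, and none of 29 markers over 7 cell types was at 0 in all libraries. Between untrained arms 1 of them was called, the microglial gene Trem2, itself on chromosome 17, and with training none was. Untrained KO male 3 stood apart: its summed excitatory neuron markers were 222 FPKM, against 570 to 703 in the other 7 libraries of that arm. Its striatal markers were 286 FPKM, against 49.6 to 199, and its oligodendrocyte markers 532, against 892 to 1010. In bulk tissue, fewer cells of a type and less RNA per cell cannot be told apart. Baiap3 passed the minimum only through untrained KO male 3, at 27.2 FPKM against 0.368 to 1.89 in all other libraries.

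DNA upstream of 4 zinc finger genes is shown, because these genes lie between rows 33 and 47 and differed between labels in opposite directions. 3110052M02Rik (Zfp983 in RefSeq) and Zfp945 were higher in libraries labelled KO, and 2210404O09Rik (Zfp995) and Zfp758 were lower. The RefSeq table used here gives 1 window for each of these genes, the 250 bases before the start of 1 transcript in GRCm38.p6. Shown is the part of each window that lies outside the gene's extent in RefSeq and GENCODE M21, written 5′ to 3′ on the gene's strand. Other transcripts of these genes may start elsewhere. Capitals mark a match, on either strand, to the TATA box (TATAAA), the CCAAT box (CCAAT), the GC box (GGGCGG) or the E-box (CACGTG).
3110052M02Rik, chr17:21650361-21650571, plus strand: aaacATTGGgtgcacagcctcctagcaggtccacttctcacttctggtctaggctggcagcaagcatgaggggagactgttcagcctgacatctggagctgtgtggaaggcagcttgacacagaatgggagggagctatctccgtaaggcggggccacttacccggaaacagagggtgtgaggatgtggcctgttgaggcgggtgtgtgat
Zfp945, chr17:22867310-22867384, minus strand: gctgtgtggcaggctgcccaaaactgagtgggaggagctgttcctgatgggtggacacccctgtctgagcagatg
2210404O09Rik, chr17:21910086-21910176, minus strand: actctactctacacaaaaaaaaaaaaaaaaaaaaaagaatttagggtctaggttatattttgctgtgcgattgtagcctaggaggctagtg
Zfp758, chr17:22361213-22361429, plus strand: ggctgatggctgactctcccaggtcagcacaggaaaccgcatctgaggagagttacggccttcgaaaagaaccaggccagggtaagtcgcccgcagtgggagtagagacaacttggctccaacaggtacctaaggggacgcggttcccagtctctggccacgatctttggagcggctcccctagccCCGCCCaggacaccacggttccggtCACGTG
The stretch of 3110052M02Rik held CCAAT, read here on the opposite strand as ATTGG. That of Zfp758 held GGGCGG on the opposite strand and the palindrome CACGTG. It lies almost wholly inside the RefSeq extent of the neighbouring gene Zfp944, chr17:22337983-22361428. Those of Zfp945 and 2210404O09Rik, which are shorter, held none of the 4 motifs. The rest of the Zfp945 window, inside its RefSeq extent and not shown, held GGGCGG, and the rest of the 2210404O09Rik window held none. G+C content of the stretches shown ran from 33.0% in 2210404O09Rik to 61.3% in Zfp758. The window of Zfp760, which was also higher, lies within its RefSeq gene and is not shown. Zfp40 (row 48), which was lower, had no matched window.

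Among 155 RefSeq promoter windows of the 121 described genes that matched the table, GGGCGG occurred in 61.9%, against 32.7% of all 32851 mouse windows. CCAAT occurred in 41.9% against 33.8%, CACGTG in 11.6% against 6.02%, and TATAAA in 3.87% against 12.4%. The described genes passed a minimum of 1 FPKM, while the windows of all genes did not have to. Shares over expressed genes alone were not taken, so these differences cannot be ascribed to the stretch. For the 17 matched genes that differed between labels, with 25 windows, the shares were 44% for GGGCGG, 40% for CCAAT, 20% for CACGTG and 0 windows for TATAAA. Genes with some of the largest changes, among them Rnps1, D330041H03Rik, Zfp40, Pkmyt1 and 9030025P20Rik, had no matched window and are not in these shares. With both strands searched, matches to CCAAT and GGGCGG can share bases, and a match is a description of letters only. Windows of the same gene can overlap, and so can those of neighbouring genes. Windows of the called genes Nubp2 and Spsb3 share CCAAT and CACGTG matches, which are counted for each window.

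The first comparison asks how the flanking genes differed between untrained libraries labelled KO and WT. The splicing factor gene Rnps1 was much lower in libraries labelled KO, at 0.368 times the median with the WT label. The noncoding gene beside it, D330041H03Rik, was 4.23 times as high, from 6 to 72 reads per library. Zinc finger genes differed in both directions, the mitotic kinase gene Pkmyt1 and the mTORC1 regulator gene Tsc2 were lower, and the vesicle gene Syngr3 was slightly higher. At an adjusted p under 0.05, named "called" from here on, 25 of 150 genes (16.7%) differed, 10 higher and 15 lower in libraries labelled KO. Over all 12572 genes tested the share called was 1.42%, with 0.605% higher and 0.819% lower. Of the 25, 4 reached the minimum of 1 FPKM only through the arm or arms where they are high (9030025P20Rik, D330041H03Rik, Pkmyt1 and Tcte2). The minimum thus favoured a difference in these 4, and their values are a description. Cahm, Dll1, Gm16386 and Baiap3, each also with an arm mean under 1 FPKM, were not called. The called genes changed by 0.21 to 1.37 in absolute log2 value, with a median of 0.41, and 9 of them by at least 0.5. At an unadjusted p under 0.05 there were 54, a threshold for which no share over all genes was taken. Without untrained KO male 3, 31 were called, with all 25 among them, while the count over all genes went from 179 to 340 (2.70%). All 25 had the same sign in females and in males, and a test of genotype label by sex called 0 genes overall (394 at an unadjusted p under 0.05, 6 of them flanking genes).

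The called genes were spread unevenly along the rows. None of 16 was called at rows -50 to -26, and 2 of 18 at rows -25 to -1. After Thbs2, 1 of 18 was called at rows 1 to 25, then 6 of 18 at rows 26 to 50, 4 of 19 at rows 51 to 75, 5 of 20 at rows 76 to 100 and 6 of 22 in the 25 rows after row 100. In the last 25 rows, 1 of 19 was called. Between rows 33 and 117, the longest run with no more than 20 rows between calls and so set by the calls themselves, 21 of 69 genes were called, 8 higher and 13 lower. The rest of chromosome 17 had 26 of 446 called (5.83%), 26 of 433 after the described stretch and 0 of 13 before it. The 13 are too few to compare the 2 sides. Chromosomes other than 2 and 17 had 82 of 10919 called (0.751%). Rows 26 to 50 also had the widest typical difference among the bands, with a median absolute log2 change of 0.18 against 0.08 for the 150 genes and 0.06 for all genes.

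**Figure D1:**
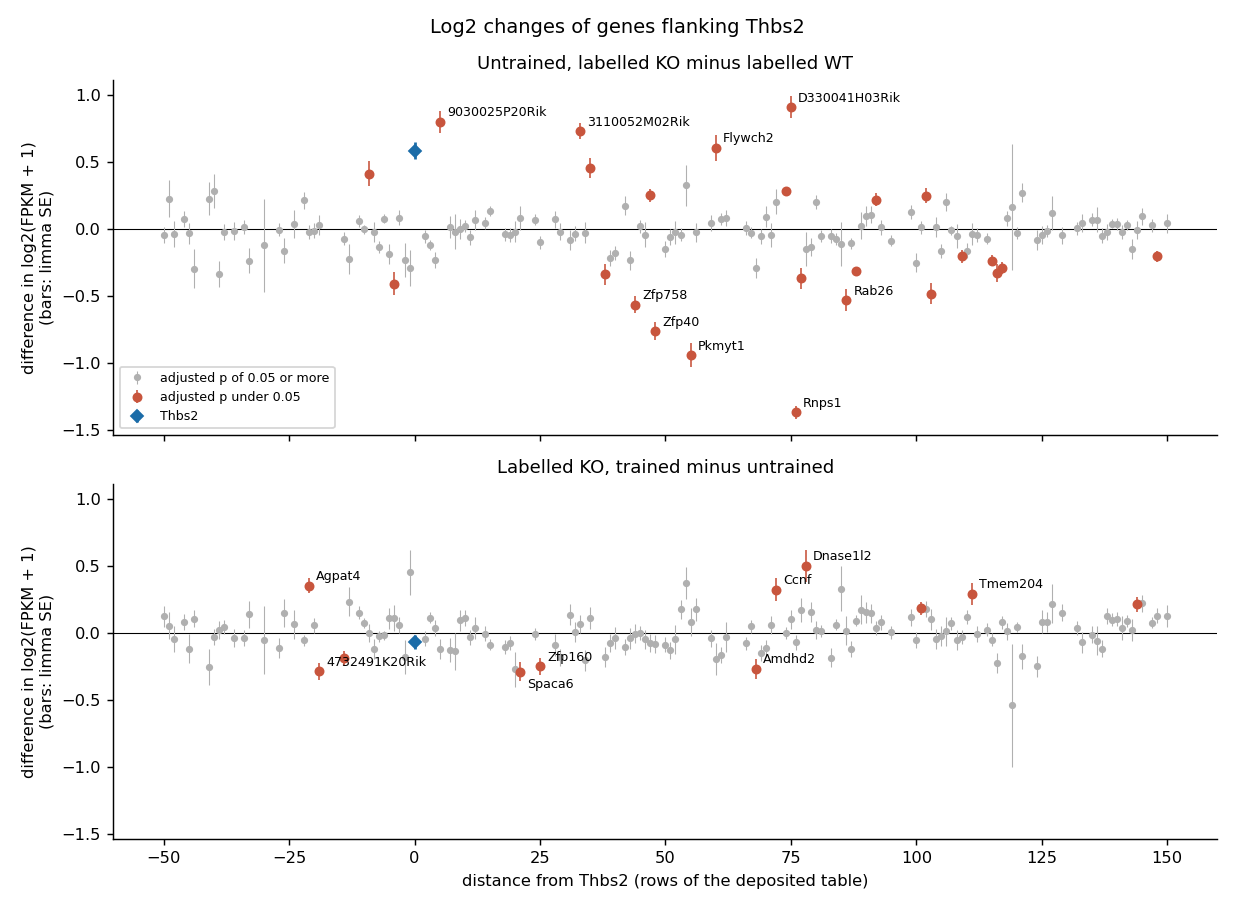
Difference in log2(FPKM + 1) of each described gene, with its limma standard error, against its distance from Thbs2 in rows, for untrained libraries labelled KO minus WT (top) and for trained minus untrained libraries labelled KO (bottom). Called genes are red: in the top panel 21 of the 25 lie between rows 33 and 117, in both directions, and in the bottom panel the 11 called genes are spread from row -21 to row 144.

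**Figure D2:**
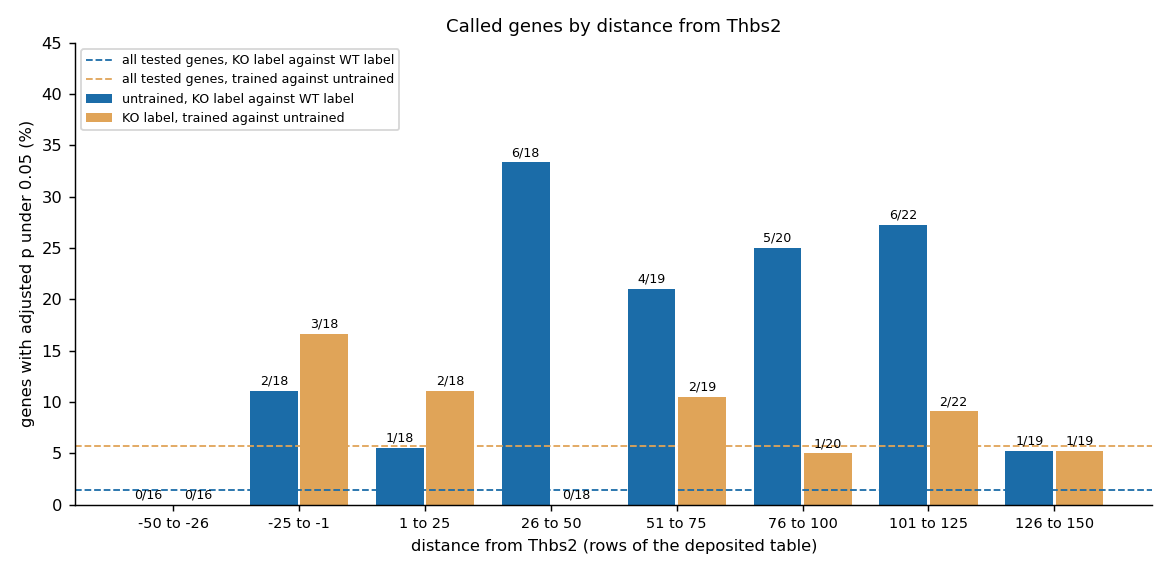
Percent of tested genes called in each band of rows, with the called and tested counts above the bars, for the genotype labels (blue) and for training (orange). Dashed lines give the share over all tested genes, 1.42% and 5.67%. The blue bars are highest from row 26 through the 25 rows after row 100.

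A total of 5 genes depended on single libraries. Over 16 fits that each left out 1 library, Acat3 was called in 5, 2210404O09Rik in 3, Syngr3 in 7, Nubp2 in 1 and Cramp1l in 4, and the other 20 in all 16.

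For 11 genes the 8 libraries labelled WT did not overlap the 16 labelled KO, 4 of them higher and 7 lower in libraries labelled KO. All 11 are among the 25 called genes, and over all tested genes the share so separated was 0.374%. They include 3 of the genes that passed the minimum only where they are high (9030025P20Rik, D330041H03Rik and Pkmyt1). For 14 of the 25, the libraries labelled WT lay apart from the 8 untrained ones labelled KO. Over all tested genes that share was 0.501%, but the 25 were called from these same libraries. Their separation is thus a description and no separate support.

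Rnps1 (row 76, chr17:24414646-24425898) had the largest change of the 150 in log2(FPKM + 1) units, where low genes appear to differ by less than they do. It encodes an RNA-binding protein of the exon junction complex that acts in splicing and nonsense-mediated decay. Its level was 41.6 to 56.0 FPKM (median 49.7) with the WT label, 17.9 to 19.6 FPKM (median 18.3) in untrained and 14.2 to 19.5 FPKM (median 18.1) in trained libraries labelled KO. All 16 libraries labelled KO lay far below the lowest library labelled WT. The untrained difference was -1.37 ± 0.046 (adjusted p = 7.86e-12). By limma-voom on recovered reads, with no such added constant, it was -1.41, smaller in size than 1.98 for D330041H03Rik, -1.84 for Pkmyt1 and 1.80 for 9030025P20Rik.

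The row before Rnps1 moved the other way. D330041H03Rik (row 75, chr17:24409481-24414513) is annotated by GENCODE M21 as a processed (noncoding) transcript on the minus strand. In those gene models 22 bases separate it from the start of Rnps1 on the plus strand, so the pair is divergent. Its values were 0.235 to 0.774 FPKM (median 0.384) with the WT label, 1.31 to 2.09 FPKM (median 1.62) in untrained and 1.49 to 2.00 FPKM (median 1.94) in trained libraries labelled KO. They rest on 6 to 72 reads per library. All KO-labelled libraries lay above all WT-labelled ones, with a change of 0.91 ± 0.084 (adjusted p = 5.01e-06). Its mean with the WT label was 0.430 FPKM, under the minimum, so it passed only through the arms labelled KO.

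On the other side of D330041H03Rik, Abca3 (row 74, chr17:24351921-24410204) encodes a lipid transporter best known from lung surfactant. It measured 20.2 to 25 FPKM (median 23.0) in WT-labelled libraries, 25.2 to 30.2 FPKM (median 28.1) in untrained and 25.8 to 29.8 FPKM (median 27.5) in trained libraries labelled KO. The separation was complete but narrow, and the change was 0.28 ± 0.030 (adjusted p = 2.26e-05). Exons of Abca3 and D330041H03Rik overlap by 914 bases on opposite strands. The kit marks strand, but the strand setting used in counting is not given in the sources used here, so reads of overlapping genes may not be separable. Eci1 (row 77), an enzyme of unsaturated fatty acid oxidation that starts 739 bases after Rnps1 on the same strand, was lower, with a change of -0.37 ± 0.076 (adjusted p = 0.0189). Its arms overlapped, at 8.41 to 12.0 FPKM (median 9.72) and 5.67 to 9.21 FPKM (median 7.58) in the untrained libraries.

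**Figure D3:**
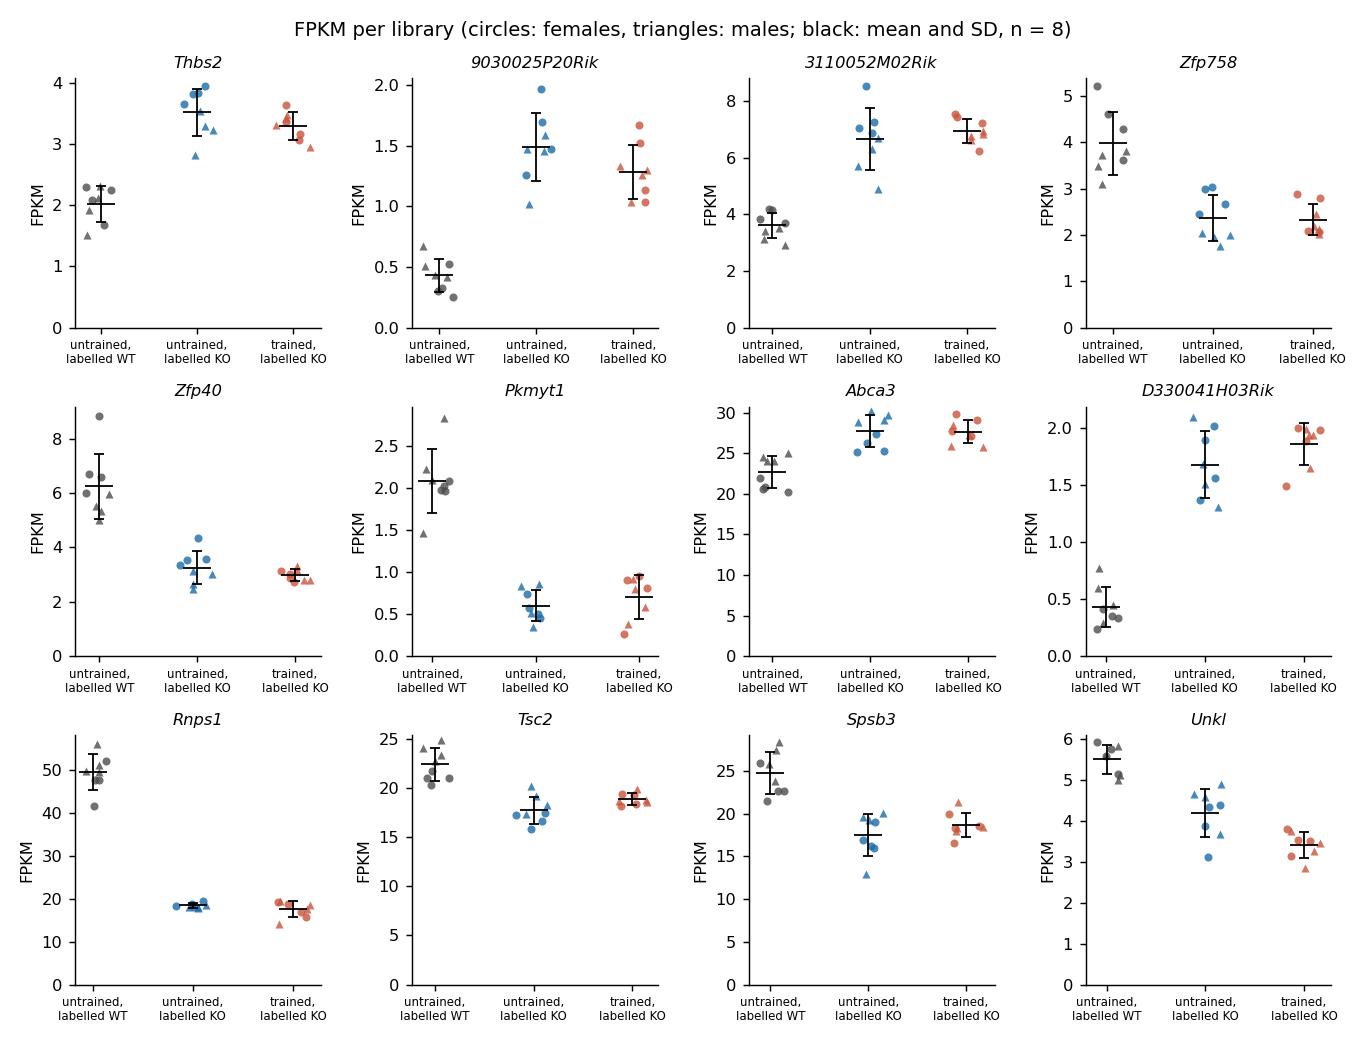
FPKM of Thbs2 and of the 11 flanking genes whose 8 libraries labelled WT do not overlap the 16 labelled KO. Each point is 1 library (circles for females, triangles for males), black marks give the mean and SD of 8 libraries, and every axis starts at 0. The trained and untrained libraries labelled KO overlap in all panels.

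The zinc finger genes form the largest family of the stretch, with 16 described genes under a Zfp symbol and 19 when RefSeq's names for 3110052M02Rik, 2210404O09Rik and Gm4944 are counted. Of the 19, 3 were higher and 3 lower in untrained libraries labelled KO, and the family median was -0.06, against -0.03 for the 150 genes. All 6 lie between rows 33 and 48. Many of these genes are close copies of one another, so reads that match several of them make each value less certain.

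3110052M02Rik (row 33) had 2.93 to 4.17 FPKM (median 3.60) with the WT label, 4.90 to 8.52 FPKM (median 6.79) in untrained and 6.24 to 7.54 FPKM (median 6.89) in trained libraries labelled KO. Its arms by label did not overlap, and its change was 0.73 ± 0.059 (adjusted p = 1.22e-06). Zfp760 (row 35), whose product is a predicted transcription factor, was also higher, with a change of 0.45 ± 0.076 (adjusted p = 0.00314). Its arms overlapped, at 2.75 to 3.84 FPKM (median 3.22) with the WT label and 3.38 to 6.15 FPKM (median 4.80) in untrained libraries labelled KO. Zfp945 (row 47) differed less, by 0.25 ± 0.050 (adjusted p = 0.0173), and its arms also overlapped.

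Zfp40 (row 48) was lower, with a change of -0.76 ± 0.069 (adjusted p = 3.93e-06). Its libraries labelled WT held 5.02 to 8.85 FPKM (median 5.98), the untrained ones labelled KO 2.47 to 4.35 FPKM (median 3.24) and the trained ones 2.74 to 3.30 FPKM (median 2.96). The 16 libraries labelled KO all lay below the lowest labelled WT. Zfp758 (row 44) was lower, with a change of -0.57 ± 0.062 (adjusted p = 3.42e-05), at 3.10 to 5.21 FPKM (median 3.77) with the WT label and 1.77 to 3.04 FPKM (median 2.24) and 2.02 to 2.89 FPKM (median 2.17) in the KO-labelled arms, again without overlap. 2210404O09Rik (row 38) was lower, with a change of -0.34 ± 0.079 (adjusted p = 0.0408), with overlapping arms. The zinc finger genes between these, Zfp942, Zfp943 and Zfp944 at rows 39, 40 and 43, were not called, with log2 differences of -0.22 ± 0.058, -0.18 ± 0.052 and -0.24 ± 0.071. Nor were Gm4944 (Zfp994 in RefSeq, row 42) and Zfp946 (row 45), at 0.17 ± 0.070 and 0.017 ± 0.049.

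Among 17 genes of kinases and growth signalling, 3 were lower and none was higher. Pkmyt1 (row 55, chr17:23726336-23736735) encodes the membrane-bound kinase that holds Cdk1 inactive before mitosis. It stood at 1.46 to 2.83 FPKM (median 2.05) in libraries labelled WT, 0.341 to 0.853 FPKM (median 0.541) in untrained and 0.267 to 0.951 FPKM (median 0.804) in trained libraries labelled KO, from 10 to 93 reads per library. There was no overlap by label, and the change was -0.94 ± 0.087 (adjusted p = 5.01e-06). The means labelled KO were 0.601 and 0.702 FPKM, under the minimum, so Pkmyt1 passed only through the libraries labelled WT.

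Tsc2 (row 88, chr17:24595816-24632676) encodes tuberin, the GTPase-activating subunit of the complex that restrains mTORC1. It measured 20.3 to 24.9 FPKM (median 22.2) with the WT label, 15.8 to 20.1 FPKM (median 17.3) in untrained and 18.1 to 19.9 FPKM (median 18.7) in trained libraries labelled KO. The ranges by label stayed apart, with the highest KO-labelled library just under the lowest WT-labelled one, and the change was -0.32 ± 0.035 (adjusted p = 3.80e-05). Tsc2 overlaps 693 exon bases of Pkd1 on the opposite strand, and Pkd1, which encodes polycystin 1, had a log2 difference of -0.11 ± 0.043 and was not called. Other genes of mTOR signalling in the stretch, Mlst8 (a subunit of both mTOR complexes) and Pdpk1 (the kinase PDK1), were not called, at -0.055 ± 0.043 and -0.029 ± 0.043. Rab26 (row 86), a small GTPase of secretory and synaptic vesicles, was lower, with a change of -0.53 ± 0.079 (adjusted p = 0.00114). Its untrained arms did not overlap, at 21.1 to 26.4 FPKM (median 23.0) and 11.1 to 18.7 FPKM (median 16.1), while trained libraries reached 22.0 FPKM.

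Of 15 genes for transcription and chromatin, 1 was higher and 2 were lower. Flywch2 (row 60), which encodes a small FLYWCH-type zinc finger protein, rose with the KO label by 0.60 ± 0.096 (adjusted p = 0.00230). Its untrained arms were 5.31 to 9.20 FPKM (median 7.39) and 9.34 to 14.5 FPKM (median 11.6), which did not overlap, while trained libraries, at 7.06 to 14.5 FPKM (median 9.82), overlapped both. Its neighbour Flywch1 had a log2 difference of 0.041 ± 0.058 and was not called. Unkl (row 116), related to the Drosophila gene unkempt, was lower, with a change of -0.33 ± 0.067 (adjusted p = 0.0173) and had no overlap by label, at 5.01 to 5.94 FPKM (median 5.61) with the WT label, 3.11 to 4.89 FPKM (median 4.36) in untrained and 2.84 to 3.80 FPKM (median 3.48) in trained libraries. Cramp1l (row 109), which encodes a chromatin protein, was lower, with a change of -0.21 ± 0.049 (adjusted p = 0.0424) with overlapping arms.

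Metabolic and mitochondrial genes numbered 16, of which Abca3 and Acat3 were higher and Eci1 and Pigq lower. Acat3 (row -9), a cytosolic acetyl-CoA acetyltransferase gene, measured 1.14 to 2.59 FPKM (median 1.84) with the WT label and 2.21 to 2.96 FPKM (median 2.81) in untrained libraries labelled KO. The arms overlapped, and the change was 0.41 ± 0.095 (adjusted p = 0.0402). Its near copy Acat2 in the next row had a log2 difference of -0.027 ± 0.075 and was not called, and reads may be split between them. Pigq (row 148), of the first step of GPI anchor synthesis, was lower, with a change of -0.21 ± 0.040 (adjusted p = 0.0125).

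In protein quality and trafficking, with 16 genes, Syngr3 was higher and Gnptg lower. Syngr3 (row 92) encodes a synaptic vesicle protein, synaptogyrin 3, and had 61.4 to 80.5 FPKM (median 72.3) with the WT label against 72.5 to 95.7 FPKM (median 81.4) in untrained libraries labelled KO, a change of 0.21 ± 0.048 (adjusted p = 0.0329). Gnptg (row 117), the gamma subunit of the phosphotransferase that tags lysosomal enzymes, was lower, with a change of -0.29 ± 0.046 (adjusted p = 0.00217). It measured 43.6 to 53.9 FPKM (median 49.0) with the WT label and 33.6 to 49.8 FPKM (median 39.6) in untrained libraries labelled KO. Both genes had overlapping arms. Gnptg shares 1113 exon bases on opposite strands with Unkl, which was also lower.

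The RNA processing and translation list, with 12 genes, had Rnps1 lower and Nubp2 higher. Nubp2 (row 102), listed here although it acts in assembly of cytosolic iron-sulfur proteins, changed by 0.24 ± 0.057 (adjusted p = 0.0402). Spsb3 (row 103), in the next row, encodes a SOCS-box protein of ubiquitin ligases and belonged to no list. It stood at 21.5 to 28.4 FPKM (median 24.8) in WT-labelled libraries, 12.9 to 20.1 FPKM (median 18) in untrained and 16.6 to 21.3 FPKM (median 18.4) in trained libraries labelled KO. Those ranges did not overlap by label, and the change was -0.48 ± 0.078 (adjusted p = 0.00230). It shares 1694 exon bases on opposite strands with Eme2, which had a log2 difference of 0.010 ± 0.074 and was not called.

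None of 11 genes for receptors, ligands and their partners was called. Dll1, a Notch ligand, had a log2 difference of -0.023 ± 0.13, and Tnfrsf12a, the receptor of TWEAK, one of 0.32 ± 0.15. The median of Dll1 was 1.02 FPKM in untrained libraries labelled KO, with male 3 at 3.03, and 1.24 FPKM with the WT label. Of 9 synapse and channel genes, Rab26 and Syngr3 were called, both also counted above, and Cacna1h, a T-type calcium channel gene, had a log2 difference of 0.27 ± 0.071 without a call. The 43 genes in no list held 3 higher and 4 lower, among them 3110052M02Rik and 2210404O09Rik above and BC003965 (row 115), with a change of -0.24 ± 0.044 (adjusted p = 0.00885).

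The 5 described genes on each side of Thbs2 were mostly not called. Before Thbs2 these were 2700054A10Rik, Tcte2, Mllt4, Dact2 and Smoc2, and only Tcte2 (row -4) was called, at 0.977 to 1.94 FPKM (median 1.33) with the WT label and 0.543 to 1.11 FPKM (median 0.780) in untrained libraries labelled KO. Its change was -0.41 ± 0.085 (adjusted p = 0.0195), from 12 to 44 reads per library (-0.82 by limma-voom). Its means labelled KO were 0.806 and 0.959 FPKM, so it passed the minimum only through the libraries labelled WT. Smoc2, a secreted calcium-binding matrix protein gene directly before Thbs2, held 2.82 to 5.02 FPKM (median 3.51) and 1.5 to 3.82 FPKM (median 2.82) in these arms and had a log2 difference of -0.29 ± 0.13. Dact2, an inhibitor of TGF-beta and Wnt signalling, had a log2 difference of -0.23 ± 0.13, Mllt4 (afadin, of cell junctions) one of 0.080 ± 0.056, and the noncoding 2700054A10Rik one of -0.19 ± 0.076.

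After Thbs2 come 1600012H06Rik, Phf10, LOC106740, 9030025P20Rik and Ermard. Of these, 9030025P20Rik (row 5, chr17:14978864-14991577), a protein-coding gene in GENCODE M21, was called. Its values were 0.254 to 0.673 FPKM (median 0.423) with the WT label, 1.02 to 1.97 FPKM (median 1.47) in untrained and 1.03 to 1.67 FPKM (median 1.27) in trained libraries labelled KO. All KO-labelled libraries lay above all WT-labelled ones, and the values rest on 7 to 89 reads per library. The change was 0.80 ± 0.081 (adjusted p = 1.51e-05). With a mean of 0.430 FPKM under the WT label, it passed the minimum only through the arms labelled KO. LOC106740 in the row before it missed the threshold, with a log2 difference of -0.23 ± 0.058 (adjusted p = 0.0593). The other rows here were not called: Phf10, a subunit of PBAF chromatin remodelling complexes, had a log2 difference of -0.12 ± 0.038, 1600012H06Rik one of -0.057 ± 0.047, and Ermard one of 0.013 ± 0.082.

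Other called genes also share exon bases with a neighbour in GENCODE M21, so their values carry the same doubt. The overlap was 571 bases for Acat3 with Tcp1, 221 for Tcte2 with Mllt4 and 319 for Pkmyt1 with Paqr4, all on opposite strands. Rab26 shares 267 bases with Traf7 and Pigq 330 with Nhlrc4, each on the same strand. The described neighbours were not called: Tcp1, a chaperonin subunit gene, had a log2 difference of -0.0065 ± 0.035, Paqr4 one of -0.027 ± 0.071 and Traf7, a ubiquitin ligase gene, one of -0.077 ± 0.044.

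The 5 described genes with the highest mean FPKM, a per-length level, were not called either. Ppp2r1a, the scaffold subunit of protein phosphatase 2A, had 260 to 339 FPKM (median 301) with the WT label and a log2 difference of 0.066 ± 0.043. Fbxl16 (an F-box protein) had 287 to 356 FPKM (median 311) and a log2 difference of -0.053 ± 0.054. Tceb2, Mapk8ip3 and Psmb1 (elongin B, a JNK scaffold and a proteasome subunit) had log2 differences of 0.077 ± 0.061, -0.012 ± 0.035 and 0.019 ± 0.046.

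**Figure D4:**
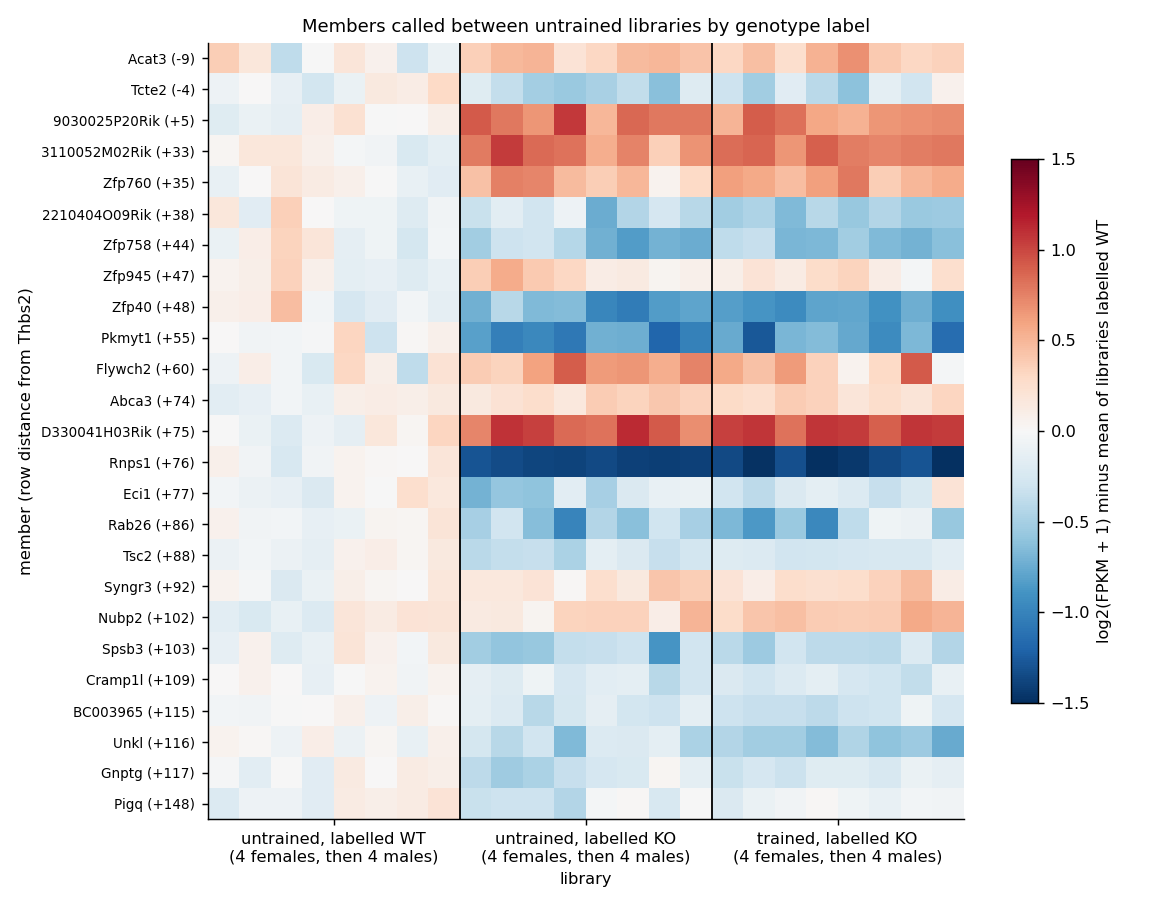
The 25 genes called between untrained libraries, in row order, over the 24 libraries. Colour gives log2(FPKM + 1) minus the mean of the 8 libraries labelled WT, red for higher and blue for lower. Both arms labelled KO show the same colour for each of the 25 genes on average, and Rnps1 is the darkest blue row.

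The second comparison asks how training went with these genes in libraries labelled KO. Here 11 of 150 genes (7.33%) were called, 6 higher and 5 lower after training, against 5.67% of all tested genes. None of the 25 genes called between labels was among them. Agpat4 (row -21), an acyltransferase of phospholipid synthesis, had the smallest p. It held 21.3 to 30.6 FPKM (median 26.8) in untrained and 30.3 to 37.9 FPKM (median 34.5) in trained libraries, with overlap at the edge, and rose by 0.35 ± 0.056 (adjusted p = 0.00220). Libraries labelled WT, at 22.3 to 32.6 FPKM (median 28.4), lay near the untrained ones.

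Dnase1l2, a DNase I family gene at row 78, rose by 0.50 ± 0.12 (adjusted p = 0.0261), and Ccnf (row 72), the cyclin F substrate receptor of a ubiquitin ligase, by 0.32 ± 0.085 (adjusted p = 0.0355). Hagh, the glyoxalase II gene, rose by 0.18 ± 0.049 (adjusted p = 0.0388), and Fam195a (Mcrip2 in RefSeq) by 0.21 ± 0.055 (adjusted p = 0.0354). The sixth was Tmem204, outside the naming rule and named after its values were seen, at 0.29 ± 0.083 (adjusted p = 0.0491).

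Of the 5 genes that fell, the noncoding 4732491K20Rik stood at -0.29 ± 0.065 (adjusted p = 0.0184) and Spaca6, a gene for sperm-egg fusion, at -0.29 ± 0.071 (adjusted p = 0.0248). Zfp160 stood at -0.25 ± 0.062 (adjusted p = 0.0275) and Amdhd2, of amino sugar catabolism, at -0.27 ± 0.075 (adjusted p = 0.0455). Igf2r, the mannose 6-phosphate receptor gene, stood at -0.19 ± 0.054 (adjusted p = 0.0452). Igf2r measured 5.62 to 7.54 FPKM (median 6.10) in untrained and 4.61 to 5.58 FPKM (median 5.36) in trained libraries labelled KO. Its trained libraries all lay just below the lowest untrained one, a separation whose share over all genes was not taken. Libraries labelled WT held 6.03 to 6.93 FPKM (median 6.68). Over 16 fits that each left out 1 library, Igf2r was called in 3, Hagh and Amdhd2 in 6, and Ccnf and Fam195a in 7. Zfp160 was called in 9, Dnase1l2 in 10 and Spaca6 in 14. Of the 10 training genes named by rule, 2 were called in all 16 (Agpat4 and 4732491K20Rik).

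Training went with the animal numbers in the labels: all 8 trained mice, but 2 of 8 untrained KO and 1 of 8 WT mice, had numbers over 1000. A covariate that split the mice at 1000, named "animal number as a covariate" from here on, left 0 of 12572 genes called for training by limma. All trained mice lay on 1 side of that split, where the untrained KO arm had only 2 males. The fit thus has little power and cannot separate training from the numbers. In that fit 16 flanking genes were at an unadjusted p under 0.05, a threshold for which no share over all genes was taken. Limma-voom without that covariate called 11 flanking genes, and 702 of all 12572 genes (5.58%). The labels do not say what the numbers stand for. Among males with numbers over 1000 (4 trained and 2 untrained), 0 of 12572 genes were called. There, 19 flanking genes were at an unadjusted p under 0.05, again with no share over all genes taken. Leaving out 1 library lowered the 11 calls to 7 or fewer for each trained library except male 4, and for untrained females 1, 3 and 4. Over these fits the count of all genes called ran from 330 to 945, against 713 with every library. The lowest count of flanking genes was 2, without trained female 2 (408 of all genes) or without untrained female 1 (330). Without untrained KO male 3 it was 11 (852 of all genes). Trained KO female 1 had summed choroid plexus markers of 83.8 FPKM, against 1.5 to 9.5 in the other 7 trained libraries. Without it 4 flanking genes and 332 genes overall were called, and the part of those markers was not tested.

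Set against the libraries labelled WT, the trained libraries labelled KO had 62 of 150 genes called (41.3%), 24 higher and 38 lower, against 24.5% of all tested genes. This comparison shares its libraries with the others, so the values stand side by side only. Only 1 WT mouse had a number over 1000, so a fit with that covariate rests on this mouse and cannot separate the arms from the numbers. With animal number as a covariate 4 flanking genes were called, and 22 of all 12572 genes. Of the 25 genes called between untrained libraries, 23 were called here and all 25 had the same sign. Zfp945 and Pigq were the 2 not called, at 0.17 ± 0.067 (adjusted p = 0.0729) and -0.079 ± 0.047 (adjusted p = 0.226). Rnps1 was at -1.44 ± 0.064 (adjusted p = 1.85e-11), D330041H03Rik at 1.01 ± 0.070 (adjusted p = 2.26e-08) and Zfp40 at -0.85 ± 0.073 (adjusted p = 4.68e-07). Among genes called in neither of the other comparisons, Tnfrsf12a was at 0.70 ± 0.098 (adjusted p = 1.13e-04) and Dact2 at -0.41 ± 0.11 (adjusted p = 0.00954).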

How the data were processed

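Stranded mRNA libraries of 24 mice, each animal with its own, were sequenced per the labels' protocols. The authors deposited 1 table of FPKM values, which are normalized for gene length and library size. The submitters' processing notes name FastQC 0.11.7, Trimmomatic 0.38, STAR 2.5.3a, featureCounts, Subread 1.6.3 and the build mm10, with no role or order. The annotation and the strand setting are not given in the sources used here.

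Within a gene, FPKM values are whole multiples of what 1 read is worth. From this, reads of 15232 genes were recovered, with 99.97% of values whole to within 0.01 read. They give depth and cover counting error only.

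Animal numbers in the labels tied each column to its sample. Comparisons used limma 3.58.1 in R 4.3.3 on log2(FPKM + 1) (eBayes with trend, sex as covariate, only the 2 arms compared) over 12572 genes with a mean of at least 1 FPKM. P-values were adjusted by Benjamini-Hochberg over all of them, with a threshold of 0.05. This scale understates changes of low genes. Tested on simulated data for the untrained comparison over 12572 genes, the fit recovered 197 of 200 genes changed by 1 log2 unit, with 10 other calls. The noise was drawn independently for each gene. Smaller changes, such as most of those called here (median 0.41), were not simulated. Each library is a separate animal, so p-values measure spread between animals.

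Named are the 5 described genes nearest Thbs2 on each side, all called for genotype label, the 10 called for training with the smallest p, those whose WT-labelled libraries lie apart from all 16 labelled KO, and the 5 with the highest mean. Other genes appear as family or pathway neighbours and were chosen after their values were seen. The genes described, the lists and the tests were chosen with earlier results of these data known. Positions, names and promoters are from RefSeq GRCm38.p6, and exons from GENCODE M21. Alternatives covered the pseudocount, filters, scaling, covariates, weights, limma-voom on recovered reads, a replicate block and leaving out each library.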

Additional observations from a re-analysis of the deposited data

Results flagged for a closer look

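In 9 of 147 sets of 8 libraries tested (a named gene in an arm), 1 library lay far from the other 7, where chance gives about 7.35 (1 in 20). Igf2r was at 7.537 FPKM in untrained KO male 3 (others 5.617 to 6.314) and at 4.613 in trained KO male 3 (others 5.152 to 5.583). Ccnf was at 1.3 in untrained KO male 3 (others 2.164 to 2.813). Trained KO male 3 also held the highest Spaca6 of its arm, 13.3 (others 8.733 to 10.58), and the highest BC003965, 7.969 (others 6.131 to 6.867). Zfp40 reached 8.848 in WT female 3 (others 5.021 to 6.686), which was the WT-labelled library farthest from those labelled KO. Eci1 was at 11.6 in trained KO male 4 (others 7.326 to 8.834). 1600012H06Rik was at 7.25 in untrained KO female 4 (others 5.156 to 6.14), and Fbxl16 at 368.2 in untrained KO male 1 (others 283.9 to 312.6).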

How the results depend on the processing

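Between untrained libraries, all 25 called genes kept their direction in every alternative that tested them, and 14 stayed called in each. The count of 25 was 14 with a mean of at least 5 FPKM (fewer genes tested), 17 without the sex covariate, 18 with a replicate block, 32 with array weights and 20 to 31 when 1 library was left out. The 179 calls over all genes became 128, 98, 114, 297 and 115 to 340 there. The 11 training calls became 6 with a mean of at least 5 FPKM, 5 without the sex covariate, 23 with array weights, and 0 with a replicate block, with animal number as a covariate or in males with numbers over 1000 (24, 16 and 19 at an unadjusted p under 0.05 by limma). With 1 library left out the range was 2 to 12. Over all genes the 713 training calls became 598, 422, 2020, 29, 0 and 0 in these settings. All 10 named training genes kept their direction. For trained KO against WT labels, 62 became 40 with a mean of at least 5 FPKM, 42 with a replicate block, 4 with animal number as a covariate and 53 to 65 with 1 library left out, while 3074 calls over all genes became 2342, 1614, 22 and 2363 to 3418. Apart from the fewer genes tested, the cause was not tested. The change of Thbs2 ran from 0.54 to 0.61 with 1 library left out. Same-numbered mice were different animals and did not deviate together (mean r 0.0247 between untrained arms and -0.0701 for training), so the block pairs numbers only.

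Uncalled genes near 0 changed sign: Ermard was at -0.016 with animal number as a covariate, -0.025 in animals with numbers under 1000 and -0.035 to 0.054 with 1 library left out (-0.035 and -0.029 without untrained KO male 2 and WT male 4). Psmb1 ran from -0.0043 (without untrained KO female 4) to 0.040, and Mapk8ip3 from -0.024 to 0.0084 (without untrained KO male 3). Depth limits D330041H03Rik, 9030025P20Rik, Pkmyt1 and Tcte2, which had as few as 6, 7, 10 and 12 reads in a library.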
